A study of Mus musculus with 6 samples.

Results

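The 9 genes described here, Fabp7, Fabp5, Fabp3, Dbi, Acsbg1, Apoe, Clu, Abca1 and Lpl, bind, activate, carry, export or release lipids in glia, and were taken by name from the 53379 genes in the table. All 9 passed the filter on low counts and were among the 21244 genes tested. They were measured by bulk RNA sequencing of mouse cortex at postnatal day 0 (P0), in 3 libraries from Npas3+/- tissue and 3 from wild-type (WT) tissue, all of the strain C57BL/6. Npas3 encodes a neural transcription factor of the basic helix-loop-helix PAS class. The labels do not describe how its gene was disrupted, name no treatment and do not say whether replicates were separate animals, so a p-value here speaks only of the spread among these libraries.

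Glia move fatty acids through the watery cytoplasm on small intracellular fatty acid-binding proteins (FABPs), and acyl-CoA synthetases trap them as acyl-CoA, which acyl-CoA-binding protein then carries. Lipid leaves the cell through ABC transporters such as Abca1, which load it onto apolipoproteins, and lipases release fatty acids from the resulting particles. Fabp7, also called brain lipid-binding protein, is a classical marker of radial glia, the stem cells and scaffold of the developing cortex, and later of astrocytes.

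In the Npas3+/- libraries Fabp7 transcripts stood at 69.2% of the WT level, with every Npas3+/- library below every WT library. The means for Acsbg1, which makes long-chain acyl-CoA, and Abca1, which exports cholesterol and phospholipid, were 70.1% and 82.7% of WT, with overlapping libraries. Dbi was at 84.7%, and Fabp5, Clu, Apoe, Lpl and Fabp3 had means between 93.0% and 110.2% of WT. No gene of the 9 passed edgeR's quasi-likelihood test at an adjusted p under 0.05, which called 0.0377% of all genes tested (8 of 21244). DESeq2 called 1 of the 9, Fabp7, and 3.4% of all genes it adjusted (511 of 15051).

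Before adjustment, 3 of the 9 had a p under 0.05 in edgeR, all with the lower mean in Npas3+/-, beside 12.1% of all genes in either direction and 5.84% with the lower mean in Npas3+/-. The groups did not overlap for 2 of the 9, Fabp7 and Fabp5, both lower in Npas3+/-, a pattern found for 9.18% of all genes, and for none in the other direction, found for 9.7%. Of the 9, 6 had a negative log2 fold change, against 51.8% of all genes, and the median was -0.10 against -0.0095. The 9 genes were chosen with earlier results of these data known, so these shares only describe them. Levels are given in CPM, a gene's count scaled to the size of its library after TMM normalization, with mean ± SD over 3 libraries. A log2 fold change with a minus sign means less in Npas3+/- than in WT.

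Total counts ran from 67378231 to 87811574 per library. Npas3 itself had 15.0, 14.1 and 8.61 CPM in the Npas3+/- libraries, in replicate order here and below, against 23.4, 28.4 and 25.7 CPM in the WT libraries, and the groups did not overlap. All 10 neuronal markers were expressed, with summed levels of 8542 to 8819 CPM in Npas3+/- and 8205 to 8702 CPM in WT. Some libraries stood apart in ways that genotype did not account for. A score of 13 striatal markers, the mean deviation of their log2 CPM from the 6-library mean, stood at -1.56, -1.35 and 0.58 for Npas3+/- and at 1.19, 1.66 and -0.52 for WT. Npas3+/- replicate 2 alone expressed Xist, the transcript of the inactive X chromosome, at 3667 CPM, with at most 2.02 CPM in the others.

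Fabp7 (ENSMUSG00000019874, chr10:57784881-57788450 on the plus strand of GRCm38, the build also called mm10) was read from 26046, 20477 and 25046 counts in Npas3+/- and 28880, 38451 and 29254 counts in WT. These gave 296, 266 and 332 CPM in the Npas3+/- libraries against 427, 458 and 408 CPM in the WT libraries. The highest Npas3+/- library, replicate 3, lay below the lowest WT library, also replicate 3. Group means were 298 ± 32.8 CPM and 431 ± 25.4 CPM, a log2 fold change of -0.53 (SE 0.085, 95% interval -0.73 to -0.33). Its p of 0.000315 ranked 23 among all genes, and the adjusted p was 0.27 in edgeR's quasi-likelihood test, 0.20 in limma-voom and 5.4e-05 in DESeq2. Whether Fabp7 is called therefore depends on the tool. No 50-base window of its transcripts occurred exactly in another annotated gene. Inexact and unannotated copies were not searched.

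**Figure D1:**
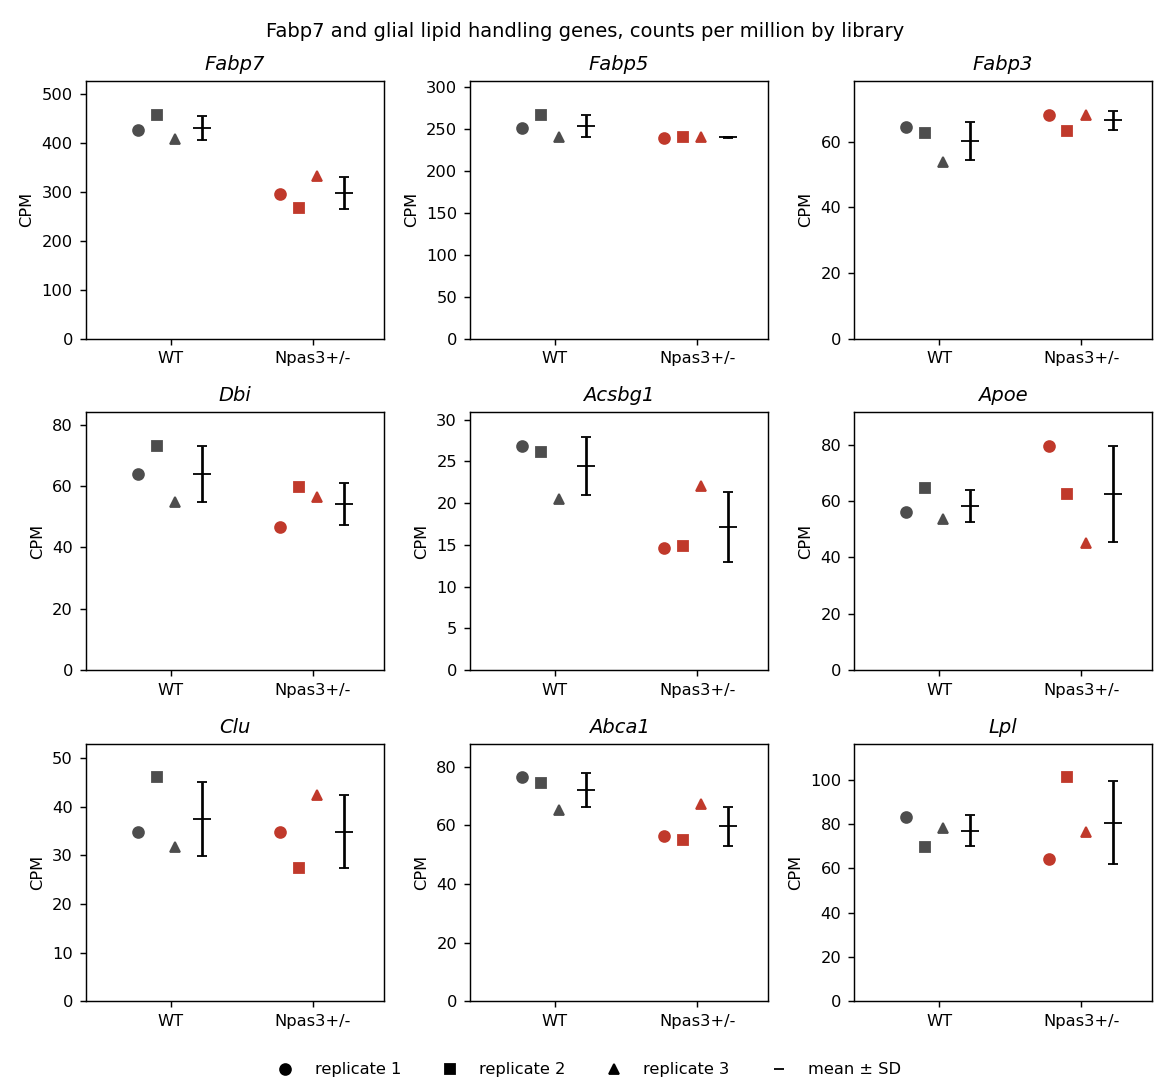
Level of each of the 9 genes in every library, as CPM on axes that start at 0. Points are libraries (grey WT, red Npas3+/-, with the shape giving the replicate number) and bars are mean ± SD of 3 libraries. Fabp7 lies between 266 and 332 CPM in Npas3+/- and between 408 and 458 CPM in WT, whereas the groups overlap for Fabp3, Dbi, Acsbg1, Apoe, Clu, Abca1 and Lpl.

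The plot of CPM by library shows Fabp7 as the widest separation among the 9 genes. Fabp5 also separates, by a margin that is hardly visible on its axis.

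The sequence before the start sites of Fabp7, Acsbg1 and Abca1 is shown because these were the 3 genes with an unadjusted p under 0.05. This choice was made after their values were seen. RefSeq start sites matched 6 of the 9 genes. Each sequence runs 5′ to 3′ on the strand of the gene, from GRCm38.p6, and ends before both the RefSeq and the GENCODE start. Capitals mark matches, on either strand, to 4 short motifs: CCAAT (the CCAAT box), ACGTG (a core bound by bHLH-PAS dimers, the class that Npas3 belongs to), TGGGAA (the core of RBPJ, the DNA-binding partner of Notch) and ATTTGCAT (the POU octamer).
Fabp7, chr10:57784673-57784880, plus strand: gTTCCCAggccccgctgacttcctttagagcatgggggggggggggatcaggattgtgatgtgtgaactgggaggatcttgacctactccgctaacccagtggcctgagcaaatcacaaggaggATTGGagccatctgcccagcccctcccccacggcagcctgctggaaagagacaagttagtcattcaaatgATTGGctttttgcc
Acsbg1, chr9:54661886-54662135, minus strand: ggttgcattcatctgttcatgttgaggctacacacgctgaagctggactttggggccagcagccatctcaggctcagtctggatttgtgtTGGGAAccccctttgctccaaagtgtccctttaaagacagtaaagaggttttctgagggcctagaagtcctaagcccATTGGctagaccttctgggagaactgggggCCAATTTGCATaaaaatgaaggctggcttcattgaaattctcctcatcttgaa
Abca1, chr4:53159896-53160145, minus strand: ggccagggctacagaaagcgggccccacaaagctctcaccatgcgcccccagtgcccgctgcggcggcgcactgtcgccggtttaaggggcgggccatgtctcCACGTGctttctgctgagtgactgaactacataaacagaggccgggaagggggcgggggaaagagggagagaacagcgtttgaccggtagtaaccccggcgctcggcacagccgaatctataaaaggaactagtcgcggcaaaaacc

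The Fabp7 window of 208 bases held 2 CCAAT matches, both as ATTGG, and 1 TGGGAA match, as TTCCCA. At least 1 CCAAT match occurred in 29.6% of all 32851 RefSeq promoter windows trimmed to that length, and at least 1 TGGGAA match in 18.5%. The Acsbg1 window of 250 bases also held 2 CCAAT matches and 1 TGGGAA match. At least 1 match was found in 33.8% of all windows of that length for CCAAT and in 21.6% for TGGGAA. The Acsbg1 window had in addition 1 ATTTGCAT match, overlapping a CCAAT match, and 1.601% of all windows held that octamer. Abca1 had neither CCAAT nor TGGGAA, and its 2 ACGTG matches are the same palindrome, CACGTG, read on both strands. ACGTG was found in 16.6% of all windows of 250 bases and 13.6% of those of 208 bases, and not in the windows of Fabp7 and Acsbg1. A match is a description of the letters and not a site shown to be bound.

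Among the other FABPs, Fabp5, the epidermal form that carries fatty acids and retinoic acid (ENSMUSG00000027533, chr3:10012548-10016607, plus strand), was at 239, 241 and 241 CPM in Npas3+/- and at 252, 268 and 241 CPM in WT. The lowest WT library, replicate 3, was only just above the highest Npas3+/- library. The means were 240.3 ± 1.03 CPM and 254 ± 13.2 CPM, with a log2 fold change of -0.077 (SE 0.051, 95% interval -0.20 to 0.042) and an adjusted p of 0.60 in edgeR's quasi-likelihood test. Without WT replicate 2, the highest library, it was -0.036.

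Fabp5 has 5 annotated processed pseudogenes with which it shares at least 10 windows of 50 bases. The largest share of reads went to Gm6166 (chr9:57483963-57484371). Of its 409 bases, 407 aligned with the 408 coding bases of Fabp5 and 402 matched, an identity of 98.8%. The substitutions were T9C, T189C, C261T, G341C and T393C, counted from the A of the Fabp5 start codon with the Fabp5 base first. A further 3 bases were gaps or unaligned. The stretch from position 182 is shown because, among stretches of 80 Fabp5 bases, it was the first with the most differing positions. Even there the differences lie near its ends. Capitals mark the bases that differ or have no partner.
Fabp5: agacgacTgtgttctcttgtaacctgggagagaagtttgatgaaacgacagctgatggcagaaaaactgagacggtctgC
Gm6166: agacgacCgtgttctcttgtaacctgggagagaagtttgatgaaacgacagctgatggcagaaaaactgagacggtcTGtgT

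Gm6166 had 110.2, 102 and 82.5 CPM in the Npas3+/- libraries against 95.7, 49.0 and 102 CPM in the WT libraries. WT replicate 2 thus had the lowest Gm6166 and the highest Fabp5 of the 6 libraries. Gm6166 took 31.1%, 29.3% and 24.8% of the summed counts of Fabp5 and its copies in Npas3+/-, and 27.1%, 15.3% and 29.2% in WT. When all copies were added to Fabp5, the sum was 345 ± 11.5 CPM in Npas3+/- and 340.4 ± 18.2 CPM in WT. The direction turned, to a log2 fold change of 0.020 with an adjusted p of 0.93 in edgeR's quasi-likelihood test. How the authors treated reads with several matches is not given in the sources used here, and the part of such reads in the Fabp5 difference was not tested.

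**Figure D2:**
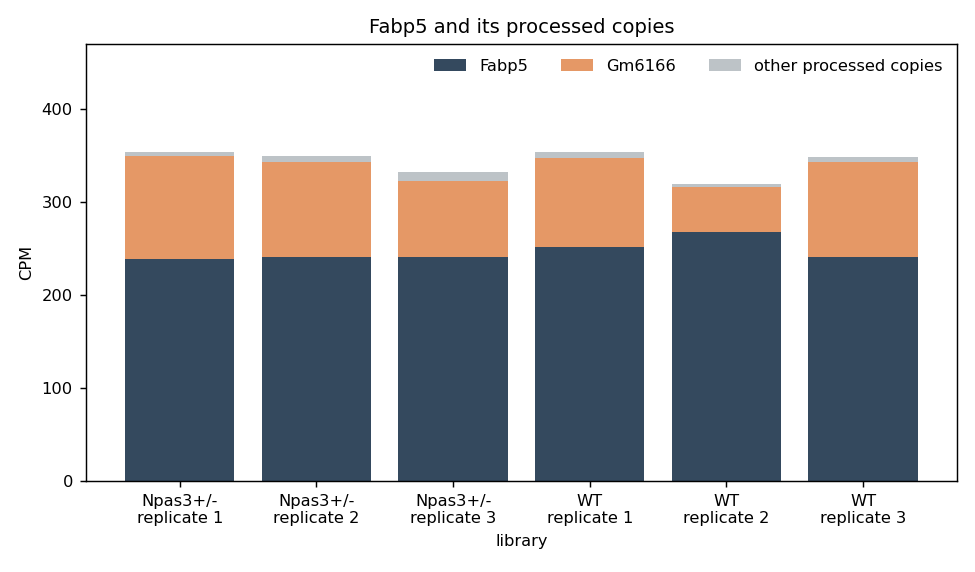
Stacked CPM of Fabp5 and its processed copies in each library, with the axis starting at 0. The Fabp5 segment is 239 to 268 CPM and the Gm6166 segment 49.0 to 110.2 CPM, and WT replicate 2 has the tallest Fabp5 and the shortest Gm6166 segment.

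The stacked plot also shows that the family total was not constant. It ran from 320 CPM in WT replicate 2, the lowest, to 354 CPM in Npas3+/- replicate 1.

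Fabp3, the heart-type FABP that neurons also make (ENSMUSG00000028773, chr4:130308595-130315463, plus strand), had the opposite sign. It was at 68.2, 63.2 and 68.0 CPM in Npas3+/- and at 64.6, 62.6 and 53.7 CPM in WT. The low library was WT replicate 3, and the other 5 overlapped. With means of 66.5 ± 2.87 CPM and 60.3 ± 5.77 CPM, the log2 fold change was 0.14 (SE 0.085) with an adjusted p of 0.56 in edgeR's quasi-likelihood test, and 0.068 without WT replicate 3. The gene shares 80 exonic bases with Gm10570 and 81 with Zcchc17 on the opposite strand, and 29.2% of its windows with the pseudogene Fabp3-ps1. The pseudogene had 17 to 44 counts per library, a mean of 0.48 CPM in Npas3+/- and 0.25 CPM in WT, and adding it to Fabp3 gave 0.15.

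Dbi, the acyl-CoA-binding protein that is also the precursor of GABA receptor-modulating peptides (ENSMUSG00000026385, chr1:120113280-120121078, minus strand), was at 46.6, 59.7 and 56.3 CPM in Npas3+/- and at 63.9, 73.2 and 54.9 CPM in WT. Npas3+/- replicate 1 was lowest and WT replicate 2 highest, and the groups overlapped through WT replicate 3. The means, 54.2 ± 6.82 CPM and 64.0 ± 9.13 CPM, gave a log2 fold change of -0.24 (SE 0.13) with an adjusted p of 0.51 in edgeR's quasi-likelihood test. Leaving out Npas3+/- replicate 1 gave -0.14, and leaving out WT replicate 2 gave -0.13.

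Acsbg1, the bubblegum acyl-CoA synthetase and a marker of astrocyte lineage cells (ENSMUSG00000032281, chr9:54604877-54661870, minus strand), was at 14.7, 14.8 and 22.01 CPM in Npas3+/- and at 26.9, 26.1 and 20.5 CPM in WT. Both replicates numbered 3 sat apart from their groups, and there the Npas3+/- library was the higher of the pair. The means were 17.2 ± 4.19 CPM and 24.5 ± 3.46 CPM. The log2 fold change of -0.51 (SE 0.18, 95% interval -0.94 to -0.083) was about as large as that of Fabp7, with a larger SE. Its p was 0.0254 before adjustment and 0.35 after it in edgeR's quasi-likelihood test, and DESeq2 gave an adjusted p of 0.099.

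Abca1, the cholesterol and phospholipid exporter (ENSMUSG00000015243, chr4:53030787-53159895, minus strand), was at 56.5, 55.04 and 67.3 CPM in Npas3+/- and at 76.4, 74.3 and 65.4 CPM in WT, so that, as for Acsbg1, only the replicates numbered 3 overlapped. Means of 59.6 ± 6.67 CPM and 72.0 ± 5.86 CPM gave a log2 fold change of -0.27 (SE 0.099, 95% interval -0.51 to -0.042). The p was 0.0265, and 0.36 once adjusted in edgeR's quasi-likelihood test.

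Apoe and Clu encode lipid-carrying apolipoproteins that glia secrete. Apoe (ENSMUSG00000002985, chr7:19696109-19699188, minus strand) was at 79.6, 62.6 and 45.3 CPM in Npas3+/- and at 56.1, 64.5 and 53.8 CPM in WT. Npas3+/- held both the highest and the lowest library, with an SD of 17.2 CPM against 5.64 CPM in WT. The log2 fold change was 0.10 (SE 0.19, 95% interval -0.33 to 0.54), and -0.11 without Npas3+/- replicate 1. Clu (ENSMUSG00000022037, chr14:65968483-65981547, plus strand) was at 34.8, 27.4 and 42.4 CPM in Npas3+/- and at 34.7, 46.1 and 31.6 CPM in WT. Its groups overlapped throughout, with a log2 fold change of -0.10 (SE 0.19, 95% interval -0.55 to 0.34) that became 0.044 without Npas3+/- replicate 2 and 0.073 without WT replicate 2. The adjusted p in edgeR's quasi-likelihood test was 0.88 for both genes.

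Lpl, the lipase that frees fatty acids from lipoprotein triglyceride (ENSMUSG00000015568, chr8:68880491-68907448, plus strand), was at 64.3, 101.2 and 76.5 CPM in Npas3+/- and at 83.3, 69.7 and 78.0 CPM in WT. Npas3+/- replicates 1 and 2 were the lowest and the highest of the 6. The log2 fold change was 0.066 (SE 0.16, 95% interval -0.30 to 0.44) with an adjusted p of 0.91 in edgeR's quasi-likelihood test, and it was -0.13 without Npas3+/- replicate 2.

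**Figure D3:**
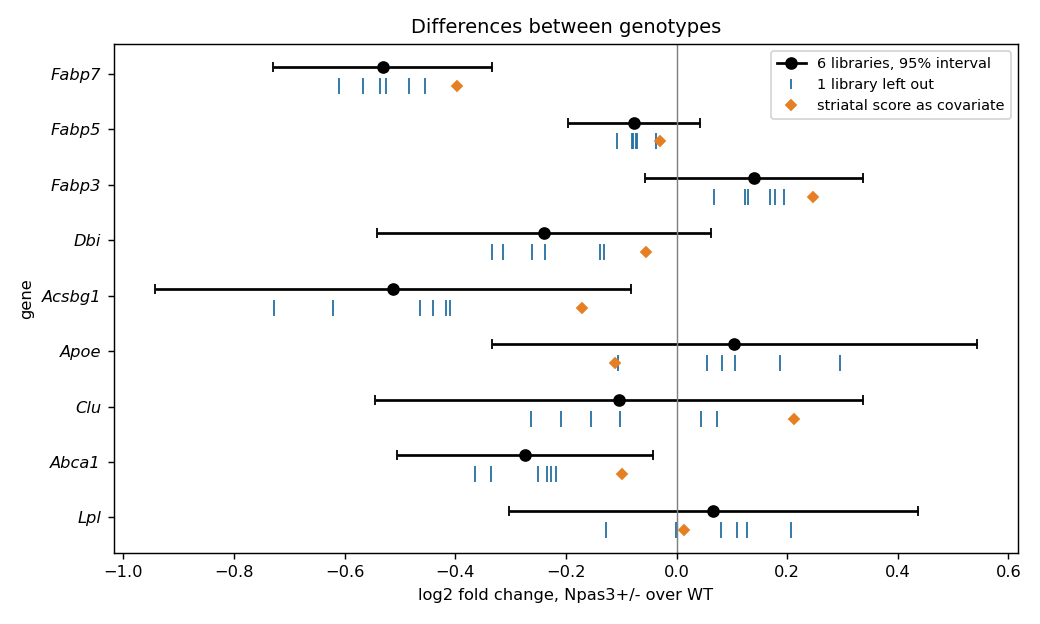
Log2 fold change of each gene, Npas3+/- over WT. Black points with bars are the estimates over 6 libraries with their 95% intervals, blue ticks the estimates with 1 library left out, and orange diamonds those with the striatal score as a covariate. The intervals of Fabp7, Acsbg1 and Abca1 lie below 0, and the ticks of Apoe, Clu and Lpl fall on both sides of it.

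In the plot of fold changes every leave-one-out estimate for Fabp7 was between -0.61 and -0.45. The intervals shown are for single genes and take no account of the number of genes tested. The striatal score as a covariate moved Fabp3 away from 0, from 0.14 to 0.25, and each of the other 8 towards or past it. Under it Fabp7 was at -0.40, Acsbg1 at -0.17, Abca1 at -0.099 and Dbi at -0.055, and Clu turned to 0.21 and Apoe to -0.11.

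The 3 genes with the lower p-values tracked the striatal score as well as genotype. Npas3+/- replicate 3 and WT replicates 1 and 2 had a positive score. Among these, Fabp7 was at 332 CPM against 427 and 458, Acsbg1 at 22.01 against 26.9 and 26.1, and Abca1 at 67.3 against 76.4 and 74.3. Among the libraries with a negative score, Npas3+/- replicates 1 and 2 had 296 and 266 CPM of Fabp7 against 408 in WT replicate 3. The corresponding values were 14.7 and 14.8 against 20.5 CPM for Acsbg1 and 56.5 and 55.04 against 65.4 CPM for Abca1. Npas3+/- was lower for these genes in each comparison of libraries with a score of the same sign, but its striatal score was also the lower one in each. The sign therefore does not match the libraries for the score, and these values leave genotype and score mixed. The comparison by sign was not tested. In the edgeR fit with the score as a covariate, the adjusted p was 0.82 for Fabp7, 0.86 for Acsbg1 and 0.88 for Abca1.

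Radial glia and astrocyte markers were also lower in Npas3+/- on balance, as were interneuron and striatal markers, whereas oligodendrocyte lineage markers were not. Of 14 radial glia markers 13 had a negative log2 fold change, with a median of -0.32, and their summed level was 1189 to 1426 CPM in Npas3+/- and 1489 to 1626 CPM in WT. Of 12 astrocyte markers 11 were negative, with a median of -0.35 and sums of 564 to 688 and 715 to 801 CPM. The astrocyte score overlapped, at -0.29, -0.28 and 0.095 in Npas3+/- and 0.19, 0.26 and 0.032 in WT. Groups did not overlap, with Npas3+/- lower, for 6 of the 14 radial glia and 1 of the 12 astrocyte markers, beside 9.18% of all genes. None of these markers is among the 9 genes described here, all were expressed, and edgeR called none. DESeq2 called 2 of the radial glia and 1 of the astrocyte markers, all lower, beside 3.4% of all genes it adjusted, in either direction. In edgeR 8 of 14 and 6 of 12 were lower with an unadjusted p under 0.05, beside 5.84% of all genes. Of 9 oligodendrocyte lineage markers 7 were higher, with a median of 0.11 and sums of 312 to 329 CPM in Npas3+/- and 273 to 310.1 CPM in WT. Neuronal markers split into 5 lower and 5 higher. Of 9 interneuron markers 8 were lower (median -0.24), and of 13 striatal markers 11 were lower (median -1.79). Of 10 endothelial markers 7 were lower (median -0.036), with sums of 208 to 214 CPM in Npas3+/- and 215 to 231 CPM in WT. Pericyte markers were lower in 3 of 8, meningeal markers in 3 of 6 and red blood cell markers in 0 of 5. The radial glia score was -0.30, -0.34 and 0.11 in Npas3+/- and 0.20, 0.19 and 0.14 in WT, whereas Fabp7 deviated from its own mean by -0.27, -0.42 and -0.11 and by 0.26, 0.36 and 0.19. In Npas3+/- replicate 3 the marker score was therefore just under those of WT, while the deviation of Fabp7 was negative and those of WT were positive. In bulk tissue, fewer glia and less RNA per glial cell cannot be told apart, and the part of glial number in the Fabp7 difference was not tested. All 11 microglia and macrophage markers were negative, with a median of -0.33 and sums of 51.3 to 75.5 and 68.3 to 78.9 CPM, and choroid plexus markers, whose tissue makes much lipid carrier protein, summed to at most 3.06 CPM in any library.

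**Figure D4:**
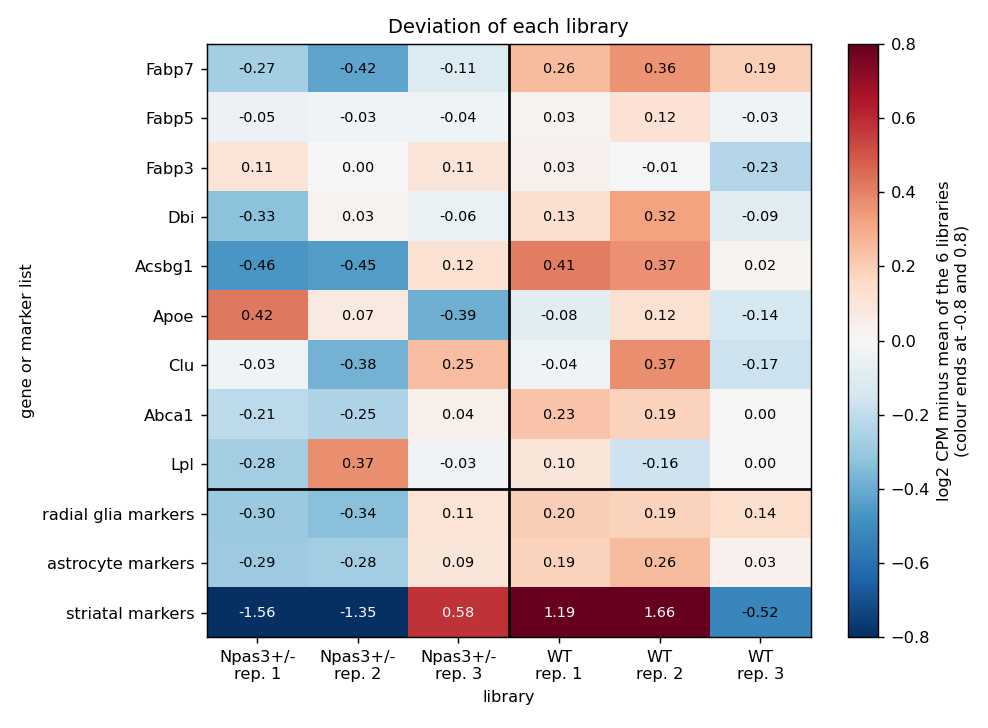
Deviation of log2 CPM from the mean of the 6 libraries for each of the 9 genes, and the score of 3 marker lists below the horizontal line. Columns are libraries, with the vertical line between genotypes, and colour ends at -0.8 and 0.8. Fabp7 is negative in all 3 Npas3+/- libraries and positive in all 3 WT libraries, while Acsbg1 and Abca1 are positive in Npas3+/- replicate 3.

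The map of deviations also shows where the genes parted from one another. Apoe was high in Npas3+/- replicate 1, at 0.42, where Acsbg1 was at -0.46, and Lpl was high in Npas3+/- replicate 2, at 0.37, where Fabp7 was at -0.42. Over the 6 libraries, Pearson's r of log2 CPM was 0.995 between Acsbg1 and Abca1, 0.91 between Fabp7 and Abca1 and 0.90 between Fabp7 and Acsbg1. Apoe, Lpl and Fabp3 had negative r with Fabp7, at -0.25, -0.32 and -0.42. These values describe 6 libraries, 3 of each genotype, so a difference between genotypes enters each r, and no p is given. Among 10413 genes with a mean of at least 10 CPM, those most like Fabp7 were Hspa4l (r = 0.998), Tmed10 (0.993), Socs2 (0.991), Slc30a1 (0.991) and Nr3c2 (0.986). With the genotype means taken off they were Hnrnpl (0.998), Optn (0.995), Ccdc85b (0.993), 2510009E07Rik (0.991) and Ginm1 (0.991), and no gene was in both groups of 5.

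Transcript levels were compared between genes as CPM per kilobase of the principal transcript, in WT. Fabp7 was highest at 536 ± 31.5, followed by Fabp5 at 257 ± 13.4, Dbi at 112 ± 16.0, Fabp3 at 73.3 ± 7.01 and Apoe at 47.8 ± 4.64. Clu at 20.7 ± 4.20 and Lpl at 18.7 ± 1.67 did not differ beyond their spread, and Acsbg1 at 8.51 ± 1.20 and Abca1 at 7.02 ± 0.57 came last. Fabp7 was still first in Npas3+/-, at 371 ± 40.7. Divided by the length of all annotated exons instead, Fabp7 remained first in WT at 345 ± 20.3, but Fabp3 at 73.3 passed Fabp5 at 71.1 ± 3.70, so the order of those genes rests on the length used.

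Genes around these 9 were read from 9 lists, called lipid lists here. They cover lipid pathways and also factors that act on Fabp7 or on gliogenesis, and they include the 9 genes themselves. The lists were chosen with earlier results of these data known, so their shares only describe them. Together they held 145 different genes that were tested. In edgeR's quasi-likelihood test none was called, and 30 (20.7%) had an unadjusted p under 0.05, against 12.1% of all genes. DESeq2 called 9 of the 134 with an adjusted p (6.72%, against 3.4% of all genes), Fabp7 and 8 named below with their DESeq2 adjusted p. Among the intracellular lipid-binding proteins 15 of 16 were matched to a gene in the count matrix and 6 were tested. Those not tested were Fabp1, Fabp2, Fabp4, Fabp6, Fabp9, Fabp12, Pmp2 and 3 retinol-binding proteins. The ones that were matched had at most 19 counts in any library. Of those 6, 4 were lower and 2 higher, with a median of -0.30. With so few genes the median was not stable. It was 0.066 with the striatal covariate, -0.14 without WT replicate 2, and -0.53 and -0.54 under the alternative low-count filters. Besides the 3 FABPs they included Crabp1, a retinoic acid-binding protein, at -2.51 (SE 0.74). Crabp1 was at 0.96, 0.49 and 2.25 CPM in Npas3+/- and 6.96, 12.1 and 1.95 CPM in WT, which is the order of the striatal score except for Npas3+/- replicates 1 and 2.

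Genes for acyl-CoA synthesis and binding were split, 10 of 18 lower with a median of -0.027, so that Acsbg1 at -0.51 lay far from the middle of its list. Among apolipoproteins, exporters and lipoprotein receptors, 15 of 24 were higher, with a median of 0.073. The exporters Abca2, at 156 against 132 CPM (0.24, adjusted p = 0.044), and Abcg4, at 62.4 against 49.1 CPM (0.34, adjusted p = 0.049), had the opposite sign to Abca1 and were called by DESeq2 alone. Lipases were higher in 8 of 12, with a median of 0.19 that was 0.11 with the striatal covariate and 0.13 without WT replicate 1 or 2. They included Lipe, hormone-sensitive lipase, at 0.53 (adjusted p = 0.039 in DESeq2).

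Fatty acid synthesis had the largest share of genes in 1 direction among the 9 lists, 14 of 18 higher with a median of 0.10. Fasn, the fatty acid synthase, was at 973 ± 11.8 CPM against 830.0 ± 48.2 CPM (0.23, SE 0.049), and Acly, which supplies cytosolic acetyl-CoA, at 302 ± 7.72 CPM against 244 ± 12.7 CPM (0.31, SE 0.053). Neither gene's libraries overlapped between genotypes. Both had an adjusted p of 0.27 in edgeR's quasi-likelihood test, the same value as Fabp7, and 0.039 and 0.0032 in DESeq2. Fatty acid oxidation was even, 11 lower and 11 higher, with Acadl, a long-chain acyl-CoA dehydrogenase, at -0.47 (adjusted p = 0.024 in DESeq2). Lipid droplet genes were also even, 8 and 8, with a median of 0.031.

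Abca1 and Apoe are textbook targets of the LXR receptors, and that list, with RXR and PPAR receptors, had 8 lower and 11 higher of 19 tested and a median of 0.041. Pdk4, a PPAR target, was at 2.17 ± 0.72 CPM against 4.46 ± 0.55 CPM (-1.04, adjusted p = 0.018 in DESeq2). Of 17 factors known to act on Fabp7 or on gliogenesis, 10 were lower and 7 higher, with a median of -0.061. Nr2f2 was at 16.1 ± 3.74 CPM against 27.1 ± 5.86 CPM (-0.75, adjusted p = 0.017 in DESeq2). Pax6 and Hes5, factors of radial glia, were at -0.33 (SE 0.11) and -0.62 (SE 0.21), while Notch1 was at -0.045 and Rbpj at 0.22.

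**Figure D5:**
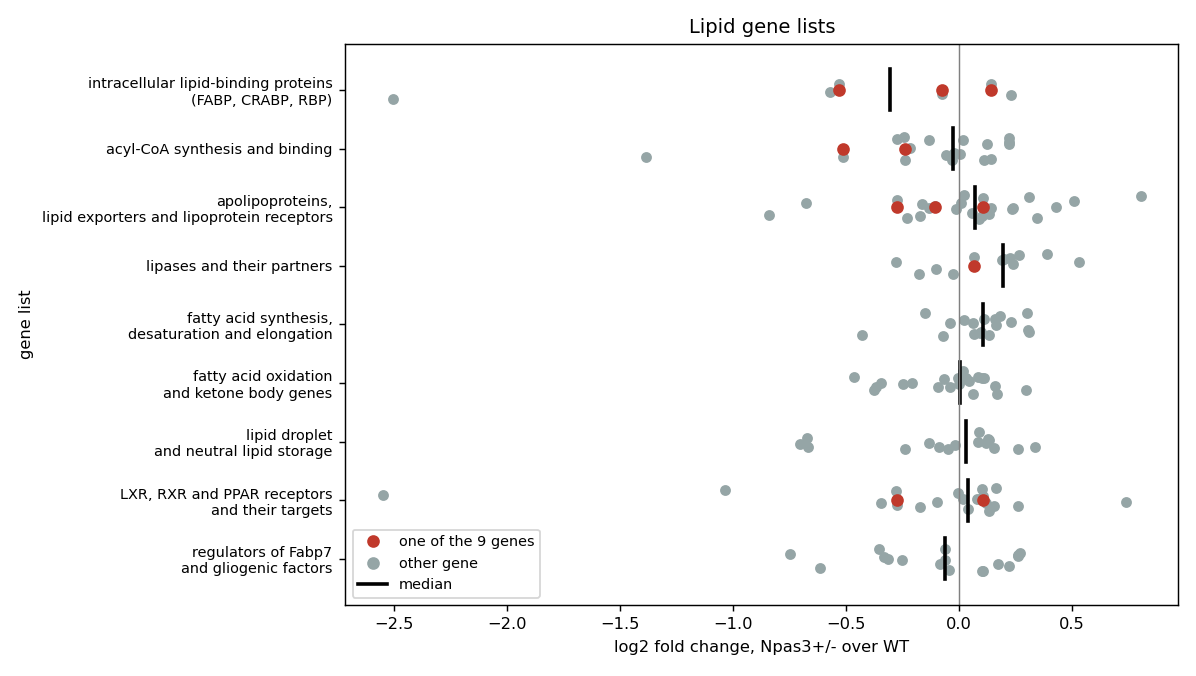
Log2 fold change, Npas3+/- over WT, of every tested gene of the 9 lipid lists. Red points are genes among the 9 described, grey points the others, and the bar is the median of the list. Medians run from -0.30 for the lipid-binding proteins to 0.19 for the lipases, with the lipid-binding median at 0.066 and the lipase median at 0.11 under the striatal covariate. The red points lie on both sides of 0.

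In the plot of lipid lists the lower values of Fabp7, Acsbg1 and Abca1 stand beside genes of the same lists at or above 0, and no list was lower throughout. The lists were described by counts and medians and were not tested as sets.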

How the data were processed

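Per the submitters' processing notes, reads were handled with Trimmomatic 0.3.8, HISAT2 2.1.0 and featureCounts on mm10, and the authors deposited raw counts per gene. The annotation release, the strand setting and how multi-mapping reads were handled are not given in the sources used here. Columns marked NP were taken as Npas3+/-, the only genotype besides WT. Identifiers were matched to GENCODE M21. In R 4.3.3, edgeR 4.0.16 (filterByExpr, TMM, glmQLFit and glmQLFTest, genotype as the only term) was fitted to 21244 genes, with Benjamini-Hochberg adjustment over all of them and a threshold of 0.05. limma 3.58.1 and DESeq2 1.42.0 were alternatives, beside other scalings and filters, a GC correction, the replicate number as a block, the striatal score as a covariate, copies summed and each library left out. An exact permutation test of 3 against 3 cannot give a two-sided p below 0.1 and was not used. The fits were tested on simulated data. From each lipid list, besides any called gene, the 3 lowest p-values among genes averaging 1 CPM or more were eligible to be named. Genes most like Fabp7 were the 5 with the highest Pearson's r. Notch1 and Rbpj were named after their values were seen. The 9 genes and the lists were chosen with earlier results of these data known.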

Additional observations from a re-analysis of the deposited data

How the results depend on the processing

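Calls over all genes numbered 8, and became 511 in DESeq2, 5 with the striatal covariate and 7 to 16 with 1 library left out, the most without WT replicate 1. Same-numbered libraries did not deviate together (correlations 0.037, -0.030 and -0.088). With 3 libraries a group this cannot exclude a pairing, and the labels do not say whether the numbers pair samples. A replicate block, with or without the GC correction, left 3 calls, and Fabp7 was at -0.54 with the block alone (adjusted p = 0.45 in edgeR). Over 5 bins of genes by GC content, the median log2 fold change rose from -0.083 in the lowest to 0.071 in the highest. Fabp7 had the lowest GC content of the 9 genes, at 42.6%. With the GC correction alone Fabp7 was at -0.47 (adjusted p = 0.40 in edgeR), Abca1 at -0.25 and Acsbg1 at -0.56. The lipase median was then 0.15. DESeq2 called 1 of the 9 genes against 0, and 9 genes of the lipid lists against 0. There Fabp7 was at -0.53 (adjusted p = 5.4e-05). Over 17 alternatives Fabp7 stayed between -0.61 and -0.40, with adjusted p from 5.4e-05 to 0.82, and Acsbg1 (-0.73 to -0.17), Abca1 (-0.36 to -0.099), Dbi (-0.33 to -0.055) and Fabp3 (0.068 to 0.25) kept their sign. Fabp5 reached 0.020 with its copies summed. Apoe turned to -0.015 with the GC correction and block and -0.11 with the striatal covariate, and ranged from -0.11 (without Npas3+/- replicate 1) to 0.29 with 1 library left out. Clu turned to 0.21 with the striatal covariate, and ranged from -0.26 to 0.073 with 1 library left out. It was positive without replicate 2 of Npas3+/- (0.044) or of WT. Lpl ranged from -0.13 (without Npas3+/- replicate 2) to 0.21, and was -0.00016 without WT replicate 2. With 3 libraries a group, the spread between libraries sets the precision.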
